A study of Mus musculus with 70 samples.

Results

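The CC chemokine receptors that direct Tregs into tissues were described here as 9 genes, chosen by name and not by any measured value: Ccr1, Ccr2, Ccr3, Ccr4, Ccr6, Ccr8, Ccr9, Ccr10 and Ccrl2. All 9 were measured in every library and all 9 were among the 13173 protein-coding genes tested, out of 53465 gene IDs in the count table. The cells were regulatory T cells (Tregs) from 5 male Foxp3YFP-cre mice, aged 16.6 to 18.6 weeks. In these mice YFP and cre recombinase are expressed from the Foxp3 locus, the gene of the factor that defines Tregs, so every group carried this allele and no group was given a treatment. YFP+ CD4+ cells that lacked CD8 and CD11b were sorted from blood, spleen, lungs, visceral adipose tissue (VAT), colon and back skin. This gave 14 groups. In each of the 6 tissues CD44hi Tregs were divided into ST2+ and ST2- cells, and central Tregs (cTregs), which were ST2- CD44lo CD62L+, were added from spleen and lungs. ST2 is the receptor for IL-33 and is encoded by Il1rl1. CD44 marks effector Tregs and CD62L marks Tregs that recirculate through lymphoid organs. Lungs, VAT, colon and skin were digested with collagenase. Spleen was disrupted mechanically, and for blood the paper gives lysis of red cells and no digestion. CD4 T cells of spleen and lungs were enriched with magnetic beads before the sort, and those of the other tissues were not. Most libraries were made from 220 cells and 7 of the 67 kept ones from fewer, down to 55. These were VAT ST2- of mice 2 to 5 (93, 192, 118 and 135 cells), blood ST2- of mouse 1 (166), and blood ST2+ of mouse 2 (202) and mouse 3 (55). Every VAT ST2+ library was made from 220 cells, so in VAT cell number ran with ST2 in mice 2 to 5. The part of cell number in the values was not tested.

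Libraries below 1000000 counts were left out, which removed blood ST2+ of mouse 1, colon ST2+ of mouse 2 and colon ST2+ of mouse 5. Each group then held 5 mice, except blood ST2+ with 4 and colon ST2+ with 3. Total counts of the kept libraries ranged from 1304560 to 2759926. At the median of 2039002, 1 CPM (counts per 1000000) is about 2.04 counts. Foxp3 was at 105 to 414 CPM in all 67 libraries. Il1rl1 was at 230.0 CPM or more in every ST2+ library and at 195 CPM or less in every ST2- one. Both labels thus held at the RNA level, although Il1rl1 was not absent from skin ST2- Tregs. Skin ST2- libraries held 23.9 to 195 CPM (median 124), against 60.6 CPM or less in the other ST2- groups. Skin ST2+ libraries held 1366 to 1614 CPM. The 3 colon ST2+ libraries stood apart in macrophage and monocyte markers: the summed level of 14 such genes was 1560 to 1883 CPM, against 345 CPM or less in colon ST2- libraries. VAT ST2+ followed with 169 to 504 CPM, and Csf1r, the receptor that defines macrophages, had 12, 92, 71, 0 and 0 counts in VAT ST2+ of mice 1 to 5. In the other groups Csf1r was at 0 counts, apart from colon ST2- and skin ST2+. The summed level of 6 B and plasma cell genes was 1162 to 1808 CPM in colon ST2- libraries. The skin ST2+ library of mouse 4 stood apart in mast cell genes, whose summed level over 6 genes was 696 CPM, against 25.4 to 123 CPM in the other skin ST2+ and 22.6 to 89.6 CPM in the skin ST2- libraries. It was the only skin library with counts of Cpa3 (256 CPM), Mcpt4 (212 CPM) and Cma1 (108 CPM), which code for mast cell proteases.

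Chemokine receptors are G protein-coupled receptors that turn a gradient of a secreted chemokine into directed migration. Each tissue displays its own chemokines, so the receptors on a circulating lymphocyte form a kind of address. CCR1, CCR2 and CCR3 bind inflammatory chemokines and are best known from monocytes, effector T cells and eosinophils. CCR4 and CCR8 bind CCL17, CCL22 and CCL1 and are typical of skin-seeking, type 2 and regulatory T cells. CCR6 follows CCL20 to epithelia, CCR9 follows CCL25 to the gut, and CCR10 follows CCL27 to skin and CCL28 to mucosa. CCRL2 is an atypical receptor that binds chemerin and does not signal through G proteins.

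Ccr1, Ccr2, Ccr3, Ccr4, Ccr8, Ccr9 and Ccrl2 lie on chromosome 9, where Ccr1, Ccr3 and Ccr2 are close neighbours. In GRCm38 coordinates Ccr1 is at chr9:123962124-123968692 on the minus strand, Ccr3 at chr9:124021972-124031689 and Ccr2 at chr9:124101950-124113557, both on the plus strand. Ccr4 is at chr9:114490316-114504916, Ccrl2 at chr9:111054486-111057519 (both minus strand), Ccr8 at chr9:120092114-120094906 and Ccr9 at chr9:123678439-123784330 (both plus strand). Ccr6 is at chr17:8236043-8257141 on the plus strand and Ccr10 at chr11:101172997-101175443 on the minus strand. Other annotated genes share 21.5% of the exonic bases of Ccr9, so its counts are less certain than those of the other 8 members, which share no exonic base with another gene.

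For Ccr1, Ccr2, Ccr3 and Ccr4, edgeR called a difference between ST2+ and ST2- Tregs that varied with the tissue. Some other fits did not call all 4. The promoters of the neighbours Ccr1, Ccr2 and Ccr3 and of Ccr4 are shown for this reason. Each is the 250 bases before the start of transcription in RefSeq (GRCm38.p6), written 5′ to 3′ on the strand of the gene. Capitals mark GATAA, a motif of GATA factors such as the GATA3 of ST2+ Tregs, and TGANTCA, a motif of the AP-1 and BATF family, searched on both strands. Their positions do not overlap in these windows, and TTATC in capitals is GATAA on the other strand.
Ccr1 (chr9:123968693-123968942): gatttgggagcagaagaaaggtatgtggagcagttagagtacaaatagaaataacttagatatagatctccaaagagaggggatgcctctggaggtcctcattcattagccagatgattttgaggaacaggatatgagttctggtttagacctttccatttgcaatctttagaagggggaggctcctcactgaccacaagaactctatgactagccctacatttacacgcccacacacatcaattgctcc
Ccr2 (chr9:124101933-124102182): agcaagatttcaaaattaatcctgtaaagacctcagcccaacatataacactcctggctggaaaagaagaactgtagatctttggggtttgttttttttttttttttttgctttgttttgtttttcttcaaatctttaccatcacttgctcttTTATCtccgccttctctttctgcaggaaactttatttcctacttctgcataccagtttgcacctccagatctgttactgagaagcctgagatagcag
Ccr3 (chr9:124021721-124021970): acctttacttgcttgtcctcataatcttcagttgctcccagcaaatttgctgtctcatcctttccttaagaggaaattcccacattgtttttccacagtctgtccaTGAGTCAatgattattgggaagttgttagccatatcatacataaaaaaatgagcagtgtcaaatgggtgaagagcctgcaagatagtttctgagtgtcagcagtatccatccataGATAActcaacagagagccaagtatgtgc
Ccr4 (chr9:114496545-114496794): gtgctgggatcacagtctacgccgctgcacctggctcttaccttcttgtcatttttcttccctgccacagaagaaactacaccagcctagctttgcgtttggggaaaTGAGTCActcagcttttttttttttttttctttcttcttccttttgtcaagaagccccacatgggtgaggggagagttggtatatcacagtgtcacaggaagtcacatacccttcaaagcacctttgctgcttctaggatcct

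The Ccr3 window held both motifs, Ccr4 held TGANTCA alone and Ccr2 held GATAA alone. Neither was in the Ccr1 window. Of 32851 promoter windows of this length, 22.6% held GATAA and 6.75% held TGANTCA. A match describes letters only.

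Receptor RNA was lowest in cTregs and highest in skin. Summed over the 9 members as mean CPM per kb of exon, the level was 27.9 in spleen cTregs and 61.8 in lung cTregs. Among ST2- CD44hi Tregs blood was lowest with 74.0, before spleen with 215, lungs with 301, VAT with 499, colon with 830 and skin with 992. ST2+ Tregs began with spleen at 298 and blood at 357, and rose over lungs at 594, VAT at 746 and colon at 751 to skin at 1125. Per kb, Ccr8 was the highest member in 12 of the 14 groups, reaching 540.4 in skin ST2+ Tregs. Both exceptions were in blood, where Ccr6 led in ST2- Tregs at 21.9 and Ccr2 led in ST2+ Tregs at 105. A mean of at least 10 CPM was held by 3 members in spleen cTregs (Ccr6, Ccr8 and Ccr9) and by all 9 in colon ST2+ Tregs. These are bulk libraries of sorted cells, in which fewer cells expressing a receptor and less RNA per cell cannot be told apart.

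**Figure D1:**
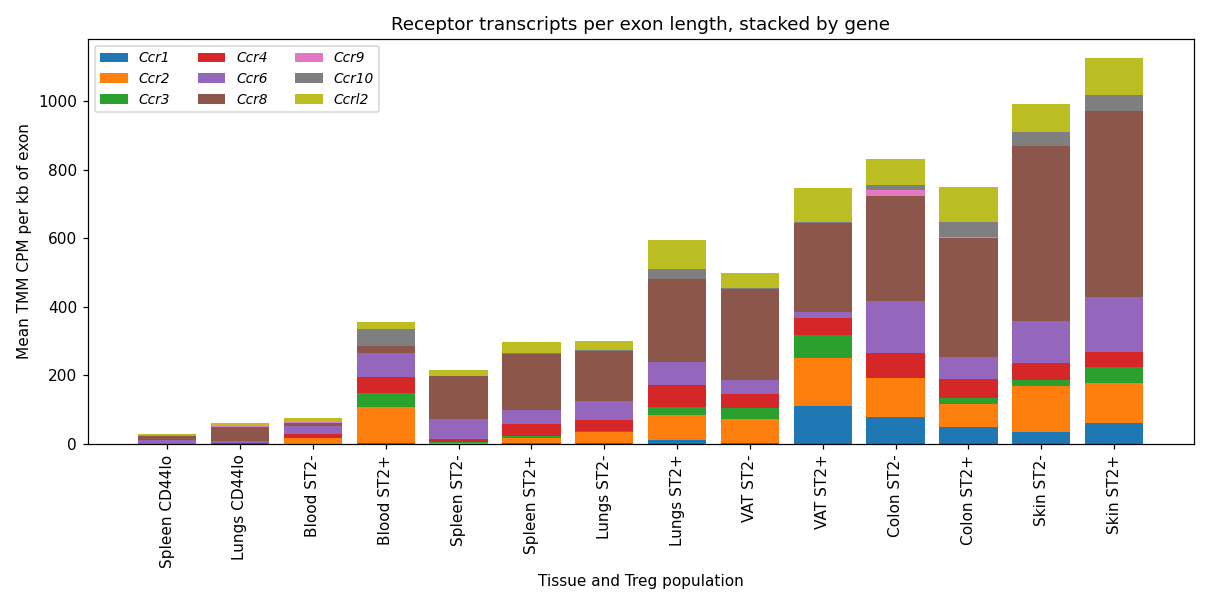
Stacked bars show the mean level of each of the 9 receptors in each of the 14 groups, in TMM-scaled CPM per kb of exon, so that genes of different length can be compared. Ccr8 takes the largest part of 12 bars, and the bars rise from 27.9 in spleen cTregs to 1125 in skin ST2+ Tregs.

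**Figure D2:**
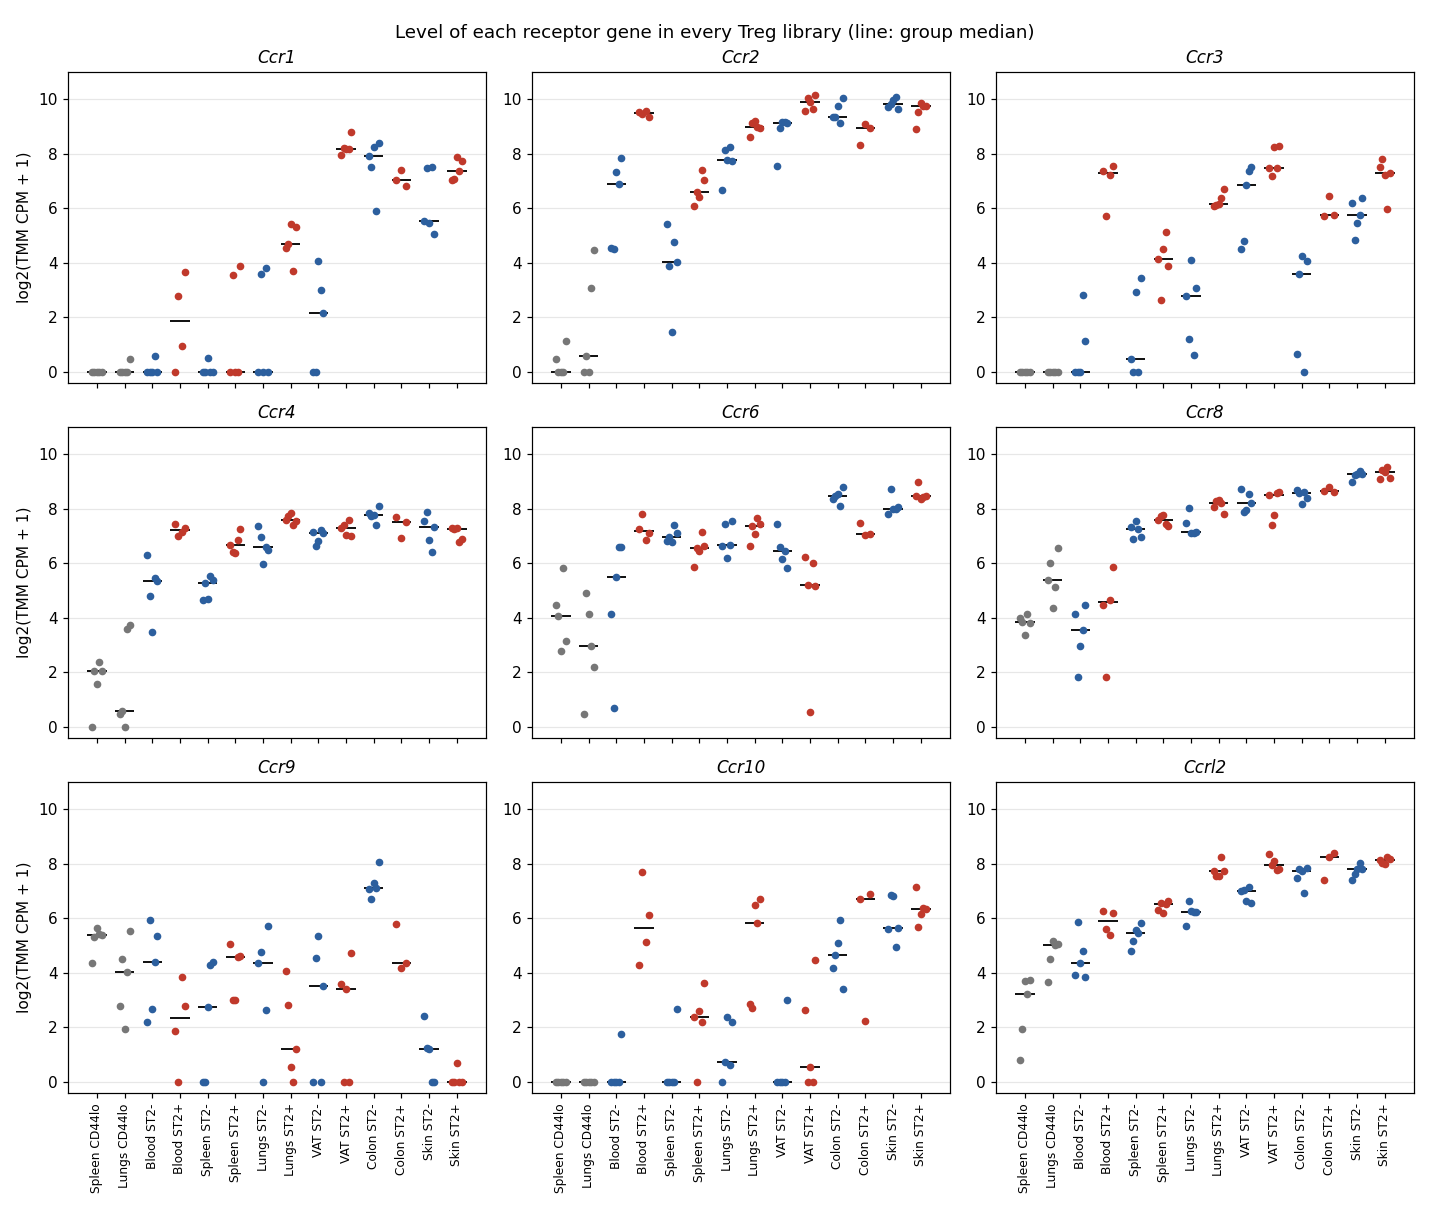
Each panel shows 1 receptor, each point 1 library as log2(TMM CPM + 1) and each line the median of its group, with CD44lo cTregs in grey, ST2- CD44hi Tregs in blue and ST2+ CD44hi Tregs in red. Ccr2 and Ccr3 separate red from blue in blood, Ccr1 separates them in VAT, and Ccr9 is highest in colon ST2- Tregs.

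The first comparison asked whether ST2+ Tregs differ from ST2- CD44hi Tregs of the same tissue in their receptors. In edgeR, Ccr2, Ccr3, Ccr4, Ccr10 and Ccrl2 were higher in ST2+ Tregs of blood. Ccr2 and Ccr4 were higher in spleen, Ccr3, Ccr10 and Ccrl2 in lungs, and Ccr1 and Ccrl2 in VAT. Calls came from the quasi-likelihood test of edgeR and needed a 1.5-fold change and an adjusted p (Benjamini-Hochberg, over all tested genes) no higher than 0.05. By this rule 12 of the 54 pairs of member and tissue were higher in ST2+ Tregs and 0 were lower. At an unadjusted p under 0.05 the test gave 25 higher and 2 lower, and other tools called 16 higher and 0 lower (DESeq2) or 17 higher and 1 lower (voom with quality weights). In blood 5 of 9 members were higher, where 2.25% of all tested genes were. The count was 2 of 9 in spleen (0.311% of all genes), 3 of 9 in lungs (0.501%) and 2 of 9 in VAT (1.27%). Which of these tissues had the most members called depended on the tool. In lungs voom called 7 members higher, all except Ccr6 and Ccr9, 2-group edgeR fits called 6 and DESeq2 called 3, whereas in blood these tools called 4, 4 and 7. In spleen they called 3, 3 and 4 members, and in VAT 3, 2 and 2. The edgeR count was 0 of 9 in colon, where 0.0304% of all genes were called, and 0 of 9 in skin, where 0.0835% were. In both of these tissues Ccr3 was the only member higher in ST2+ Tregs at an unadjusted p under 0.05, and DESeq2 and voom called none higher. The 1 member called lower by voom was Ccr6 in colon, which 2-group fits also called. Over the 6 tissues, 0.683% of all tests were called lower in ST2+ Tregs.

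In blood, Ccr2 was at 732, 701, 755 and 650.3 CPM in ST2+ Tregs of mice 2 to 5. It was at 22.4, 21.9, 159.8, 119 and 228 CPM in ST2- Tregs of mice 1 to 5. The lowest kept ST2+ library was thus above the highest ST2- library, and the log2 fold change was 2.69 ± 0.46 (SE, adjusted p = 8.31e-05 in edgeR). The shallow ST2+ library of mouse 1, which was left out, held 5 Ccr2 counts of 488666, and the call was kept with it in the fit. That library also held 0 counts of Ccr3, Ccr10 and Ccrl2, with 123 of Ccr4 and 91 of Ccr6. At the levels of the kept ST2+ libraries, its depth would give more counts of Ccr2, Ccr3, Ccr10 and Ccrl2. The blood calls of Ccr3, Ccr4 and Ccr10 were kept with it as well. Ccr3 was at 162, 50.9, 147 and 187 CPM in ST2+ Tregs of mice 2 to 5, against 0, 0, 0, 6.12 and 1.17 CPM in ST2- Tregs of mice 1 to 5. The kept libraries of the 2 groups did not overlap, and the log2 fold change of Ccr3 was 6.49 ± 0.92 (SE, adjusted p = 3.85e-06 in edgeR). Ccr10 varied most among ST2+ Tregs, with 18.6, 207, 33.6 and 69.1 CPM in mice 2 to 5. The library of mouse 3, with the highest Ccr10 and the lowest Ccr3 of these, was made from 55 cells. Mouse 5 was the only one with Ccr10 counts in ST2- Tregs, at 2.34 CPM. The log2 fold change of Ccr10 was 7.39 ± 1.4 (SE, adjusted p = 0.000662 in edgeR), a value that is imprecise because the lower group was almost empty. Ccr4 was at 127 to 170.3 CPM in ST2+ and 10.2 to 77.7 CPM in ST2- Tregs of blood, without overlap (log2 fold change 1.90 ± 0.39, adjusted p = 0.00126 in edgeR). Ccrl2 overlapped at 40.5 to 75.0 and 13.5 to 56.9 CPM, and its call (log2 fold change 1.19, adjusted p = 0.0195 in edgeR) was lost without mouse 3 or mouse 5, with voom, in 2-group fits and with all 70 libraries. Ccr6, at 113 to 222 CPM in ST2+ and 0.625 to 96.0 CPM in ST2- Tregs, did not overlap and was not called (adjusted p = 0.0715 in edgeR).

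In spleen, Ccr2 was at 67.4, 94.8, 83.9, 167 and 129 CPM in ST2+ Tregs of mice 1 to 5 and at 41.9, 13.8, 1.74, 26.1 and 15.5 CPM in ST2- Tregs. Every mouse was higher in its ST2+ library and the groups did not overlap (log2 fold change 2.43 ± 0.48, adjusted p = 0.00324 in edgeR). The call was lost without mouse 3 or mouse 4, with an adjusted p of up to 0.13 over all alternatives. Ccr4 was at 81.6 to 152 CPM in ST2+ and 23.9 to 45.6 CPM in ST2- Tregs of spleen (log2 fold change 1.62 ± 0.38, adjusted p = 0.0237 in edgeR). Although every mouse moved the same way, leaving out any 1 mouse lost this call, as did using all 70 libraries, with an adjusted p of up to 0.255. In lungs, Ccr3 was at 67.5, 68.3, 70.4, 82.9 and 102 CPM in ST2+ and at 5.82, 1.30, 16.1, 0.522 and 7.48 CPM in ST2- Tregs of mice 1 to 5. The groups were far apart (log2 fold change 3.57 ± 0.75, adjusted p = 0.00512 in edgeR), and the call was lost without mouse 5 (adjusted p up to 0.068 over the alternatives). Ccrl2 was at 185 to 298 CPM in ST2+ and 51.8 to 97.2 CPM in ST2- Tregs of lungs (log2 fold change 1.55 ± 0.29, adjusted p = 0.00101 in edgeR), a call lost without mouse 4. Ccr10 was at 6.17, 5.57, 87.4, 55.5 and 102 CPM in lung ST2+ Tregs and at 4.13 CPM or less in lung ST2- Tregs. The 3 high libraries were those of mice 3, 4 and 5, and the call (log2 fold change 4.72 ± 1.2, adjusted p = 0.0295 in edgeR) was lost when any 1 mouse was left out and with all 70 libraries, with an adjusted p of up to 0.22. Ccr2 and Ccr4 were also higher without overlap in lung ST2+ Tregs (adjusted p = 0.235 and 0.332 in edgeR). The fit to all libraries in edgeR called neither, while voom (adjusted p = 0.000826 and 0.000244) and 2-group fits (adjusted p = 0.00421 and 0.023) called both.

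In VAT, Ccr1 was at 248, 295, 286, 286 and 442 CPM in ST2+ Tregs of mice 1 to 5 and at 0, 0, 15.5, 6.93 and 3.44 CPM in ST2- Tregs. All 5 mice thus had abundant Ccr1 RNA in ST2+ and little or none in ST2- Tregs (log2 fold change 5.90 ± 0.83, adjusted p = 2.28e-06 in edgeR). CCR1 is also a receptor of macrophages, whose markers were at 169 to 504 CPM in VAT ST2+ libraries and at 19.2 to 203 CPM in VAT ST2- libraries. The VAT ST2+ libraries of mice 4 and 5 had 286 and 442 CPM of Ccr1, with 0 Csf1r counts and with marker sums of 190 and 247 CPM, so other genes of the macrophage list were present in both. Removing the 6 libraries with at least 10 Csf1r counts, a choice made after the values were seen, took out 3 of the VAT ST2+ libraries. Only mice 4 and 5 remained in that group, and the log2 fold change was 6.14 (adjusted p = 5.2e-05 in edgeR). The removed library of mouse 3 had a marker sum of 169 CPM, below both kept libraries. This removal therefore did not sort the libraries by their macrophage marker sum. The part of macrophage RNA in the Ccr1 values of VAT was not tested. Ccrl2 was at 215 to 329.9 CPM in ST2+ and 93.9 to 141 CPM in ST2- Tregs of VAT (log2 fold change 1.12 ± 0.28, adjusted p = 0.0122 in edgeR). This call was lost without mouse 3, without mouse 5 and with all 70 libraries. It was also lost without the libraries with at least 10 Csf1r counts (log2 fold change 0.90, adjusted p = 0.23 in edgeR). The part of macrophage RNA in the Ccrl2 values of VAT was not tested.

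**Figure D3:**
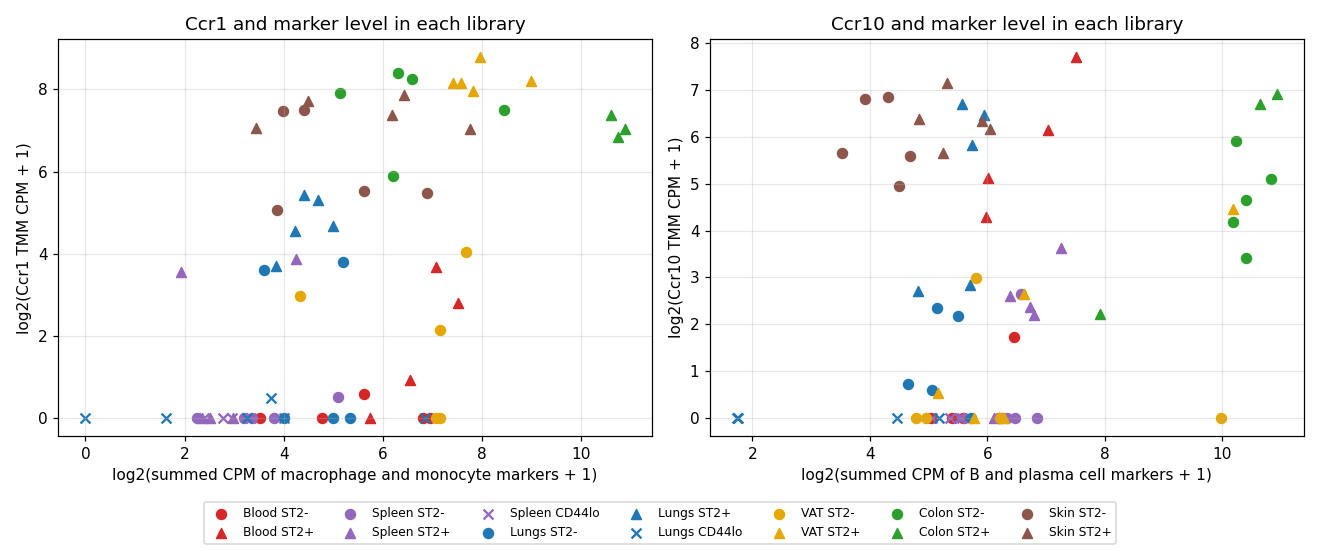
Points are libraries, coloured by tissue and shaped by population, on log2(CPM + 1) axes. On the left, Ccr1 is plotted against the summed level of 14 macrophage and monocyte markers, and the VAT ST2+ libraries lie at 248 to 442 CPM of Ccr1 while the colon ST2+ libraries, with the highest sums, lie at 113 to 166 CPM. On the right, Ccr10 is plotted against the sum of 6 B and plasma cell markers, and the colon ST2+ library of mouse 3 is low on both axes among the colon libraries.

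In colon and skin, where edgeR called no member in the fit to all libraries, the ST2 difference had either sign. Colon Ccr6 was at 175, 130.5 and 134 CPM in ST2+ Tregs of mice 1, 3 and 4 and at 271 to 446 CPM in ST2- Tregs. Colon Ccr9, the gut-homing receptor, was at 53.7, 17.0 and 19.5 CPM in the same ST2+ libraries and at 103 to 266 CPM in ST2- Tregs. Both were lower in ST2+ Tregs without overlap, as was Ccr2, and neither Ccr6 nor Ccr9 passed the test (log2 fold change -1.27 and adjusted p = 0.965 for Ccr6, -2.40 and 1 for Ccr9 in edgeR). Colon Ccr6 did pass with voom (adjusted p = 0.0315) and in 2-group edgeR fits (adjusted p = 0.0282), where Ccr9 had 0.0825 and 0.0932. Colon Ccr3 was the opposite, at 51.3, 87.0 and 53.3 CPM in ST2+ and 0 to 18.2 CPM in ST2- Tregs (log2 fold change 2.85, adjusted p = 0.215 in edgeR). The colon ST2+ group held 3 mice and macrophage markers at 1560 to 1883 CPM, and the part of that RNA in these values was not tested. In skin, Ccr8 was at 545 to 734 CPM in ST2+ and 497 to 667 CPM in ST2- Tregs, and its log2 fold change was 0.08 ± 0.29 (SE). Skin Ccr3 was higher in the ST2+ library of all 5 mice, at 61.7 to 222 against 27.6 to 80.9 CPM, with overlap (log2 fold change 1.48, adjusted p = 0.489 in edgeR). The library of mouse 4, in which the mast cell genes were high, had the lowest Ccr3 of the skin ST2+ libraries. Without mouse 4 the log2 fold change was 1.67 (adjusted p = 0.535 in edgeR). The part of mast cell RNA in the skin Ccr3 values was not tested.

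**Figure D4:**
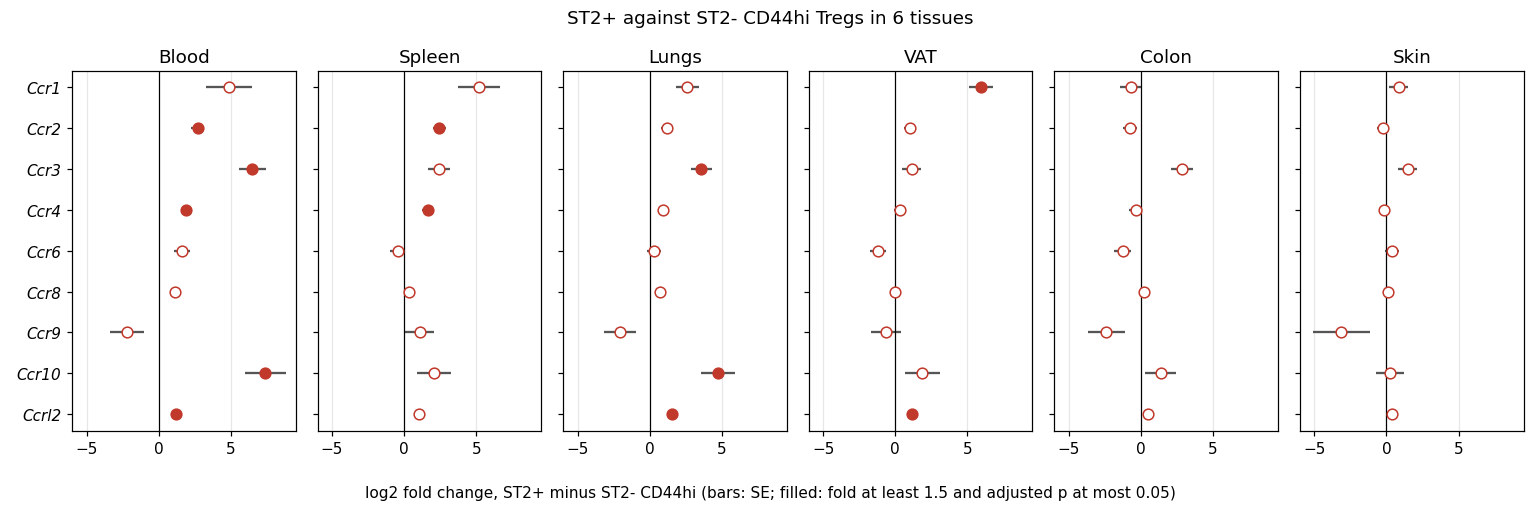
Points show the log2 fold change of each receptor between ST2+ and ST2- CD44hi Tregs in each of the 6 tissues, with bars of 1 SE from edgeR, and filled points were called different. The 12 filled points lie in blood, spleen, lungs and VAT, all on the positive side, with the largest at 7.39 for Ccr10 in blood.

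Whether the ST2 difference itself varied over the 6 tissues was tested as the interaction of ST2 and tissue, which was called for 4 of 9 members and for 1.43% of all genes. The 4 were Ccr1 (F = 8.80, adjusted p = 0.00165 in edgeR), Ccr2 (F = 8.72, adjusted p = 0.00165), Ccr3 (F = 5.73, adjusted p = 0.0297) and Ccr4 (F = 5.82, adjusted p = 0.0229). For Ccr2 the log2 difference went from 2.69 in blood to -0.75 in colon, for Ccr3 from 6.49 in blood to 1.13 in VAT, and for Ccr4 from 1.90 in blood to -0.37 in colon. For Ccr1 it was 5.90 in VAT and -0.72 in colon. With each mouse as a replicate block, the adjusted p of Ccr10 was 0.0334 in edgeR, past the threshold. Without the block the adjusted p was 0.0813 for Ccr10, 0.114 for Ccr6, 0.379 for Ccrl2, 0.551 for Ccr8 and 0.599 for Ccr9 in edgeR. The members called also depended on the tool. Voom with quality weights did not call Ccr1 and called Ccr10, and DESeq2 called Ccr6 as well. With all 70 libraries Ccr3 was not called. Leaving out 1 mouse reduced the count to 2 or 3 members, with Ccr3 lost without mouse 1, 2, 3 or 5, Ccr4 lost without mouse 2, 3, 4 or 5, and Ccr2 lost without mouse 4. Without the libraries with at least 10 Csf1r counts, a removal that left no colon ST2+ library, Ccr2 was the 1 member called (adjusted p = 0.0236 in edgeR), and Ccr1 had 0.0575.

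The second comparison set each tissue against spleen, the lymphoid organ of the series, separately in ST2+ and ST2- CD44hi Tregs. Ccr2 was called higher than in spleen in all 5 other tissues and in both populations. Its call in blood ST2- Tregs was lost in 2-group edgeR fits (adjusted p = 0.0873). The libraries overlapped there, at 21.9 to 228 CPM in blood and 1.74 to 41.9 CPM in spleen. Ccrl2 was higher in VAT, colon and skin of both, and Ccr1 in lungs, VAT, colon and skin of both. Ccr8 was lower in blood than in spleen in both populations and higher in colon and skin. In ST2+ Tregs 25 of 45 pairs of member and tissue differed from spleen and in ST2- Tregs 26 of 45 did, 2 and 1 of them being lower. The 5 contrasts of each population share the spleen libraries, so they are not independent of each other. Lungs, VAT, colon and skin were digested with collagenase and spleen was not, so tissue and digestion cannot be told apart in these contrasts. In ST2+ Tregs, 4 of 9 members differed in blood where 4.11% of all genes did, 4 of 9 in lungs (4.87%), 4 of 9 in VAT (11.2%), 5 of 9 in colon (10.4%) and 8 of 9 in skin (29.1%). The 8 skin calls held without mouse 4, whose skin ST2+ library was high in mast cell genes. The part of mast cell RNA in these 8 calls was not tested. In ST2- Tregs, the counts were 2 of 9 in blood (3.38%), 3 of 9 in lungs (4.03%), 6 of 9 in VAT (5.78%), 8 of 9 in colon (11%) and 7 of 9 in skin (30.9%). Over all 6 tissues, 8 of 9 members differed in ST2+ Tregs, as did 47.6% of all genes, and 9 of 9 in ST2- Tregs, as did 43.5% of all genes. The exception was Ccr4 in ST2+ Tregs, with group means of 106 to 198 CPM and an adjusted p of 0.338 in edgeR.

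Ccr2, the receptor that draws monocytes and effector T cells toward CCL2, rose from 108 ± 39.7 CPM (SD, n = 5) in spleen ST2+ Tregs to 943 ± 164 CPM (SD, n = 5) in VAT, the highest group (log2 fold change 3.12 ± 0.45, adjusted p = 3.68e-07 in edgeR). In ST2- Tregs it rose from 19.8 ± 15.1 CPM (SD, n = 5) in spleen to 754 ± 199 in colon and 921 ± 123 in skin (SD, n = 5 each). The skin ST2- log2 fold change was 5.52 ± 0.52 (SE, adjusted p = 2.81e-13 in edgeR). Ccr1 had 1 count in all 5 spleen ST2- libraries together and 242, 179, 302, 58.8 and 336 CPM in colon ST2- libraries of mice 1 to 5. The ratio of colon to spleen was 2655, with a 95% exact interval of 476 to 104914 that covers counting error only. In skin ST2- Tregs Ccr1 was at 45.3, 178, 43.4, 180.3 and 32.2 CPM, so mice 2 and 4 were well above the others. Ccr1 calls of lungs and VAT ST2- Tregs rested on 2 and 3 libraries with counts and were lost in several alternatives, among them voom with quality weights.

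Ccr3, the eotaxin receptor that defines eosinophils and is shared by type 2 T cells, was highest in VAT ST2+ Tregs at 177, 144, 305, 178 and 312 CPM in mice 1 to 5. Spleen ST2+ Tregs held 16.7, 5.16, 21.9, 33.6 and 13.8 CPM, so the ranges were apart (log2 fold change 3.62 ± 0.72, adjusted p = 0.000201 in edgeR). In lung ST2+ Tregs, at 67.5 to 102 CPM, Ccr3 was above spleen without overlap and just missed the call (log2 fold change 2.11 ± 0.68, adjusted p = 0.0546 in edgeR), which it passed with each mouse as a replicate block (adjusted p = 0.0375). In VAT ST2- Tregs Ccr3 was at 21.4, 26.7, 116, 164 and 182 CPM, low in mice 1 and 2. In mice 4 and 5 it was within the range of the ST2+ libraries. Each mouse had less Ccr3 in its ST2- than in its ST2+ library of VAT. Of 5 eosinophil genes, Siglecf, Epx and Ear2 had 0 counts in VAT libraries of both populations. Prg2 reached 58.1 CPM in VAT ST2- and 44.1 CPM in VAT ST2+ libraries, and Il5ra reached 0.484 and 19.2 CPM. The summed level of the 5 genes was 0 in most VAT libraries and reached at most 63.3 CPM. The part of eosinophil RNA in the Ccr3 values of VAT was not tested. Ccr3 of colon ST2- Tregs, at 0 to 18.2 CPM, was the 1 member of that population not called against spleen.

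Ccr8 and Ccr4 behaved differently from each other. Ccr8 was at 545, 686, 652, 734 and 557 CPM in skin ST2+ Tregs of mice 1 to 5, at 162 to 216 CPM in spleen and at 21.3, 2.55, 24.0 and 56.5 CPM in blood of mice 2 to 5. Skin lay above spleen and blood below it without overlap (log2 fold change 1.73 ± 0.30 and adjusted p = 5.2e-06 for skin, -2.87 ± 0.36 and 1.54e-07 for blood, in edgeR). In ST2- Tregs the blood difference was larger in size, -3.66 ± 0.36 (adjusted p = 5.25e-11 in edgeR), with blood at 2.50 to 21.1 and spleen at 118 to 188 CPM. Ccr4 of ST2+ Tregs was called in none of the 5 tissues. In ST2- Tregs it rose from 34.6 ± 9.78 CPM (SD, n = 5) in spleen to 219.6 ± 37.3 CPM (SD, n = 5) in colon (log2 fold change 2.66 ± 0.39, adjusted p = 4.21e-07 in edgeR), and was also called in lungs, VAT and skin. For Ccr8 the ST2- calls in VAT were lost without mouse 1, 2 or 4, and the ST2+ call in colon without mouse 1 or 4.

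Ccr6 and Ccr9, both known for gut homing, differed in where they were found. Ccr6 was high in both colon ST2- Tregs, at 329, 352, 367, 271 and 446 CPM in mice 1 to 5, and skin ST2+ Tregs, at 354, 497, 327, 346 and 349 CPM. Mouse 2 had the highest Ccr6 of both skin groups, at 497 CPM in ST2+ and 419.9 CPM in ST2- Tregs. Against spleen, Ccr6 was called in skin ST2+ Tregs (log2 fold change 1.99 ± 0.52, adjusted p = 0.00207 in edgeR). In colon ST2- Tregs it was called at an adjusted p of 0.0494 in edgeR that was lost in 9 of 14 alternatives, among them DESeq2 and each mouse left out. Ccr9 was at 132, 103, 157, 138 and 266 CPM in colon ST2- Tregs and at 0, 0, 5.65, 18.6 and 20.0 CPM in spleen ST2- Tregs (log2 fold change 4.15 ± 1.1, adjusted p = 0.00944 in edgeR), a call lost without mouse 2. Ccr9 was almost absent from skin, with 1 count in all 5 ST2+ libraries together, and spleen ST2+ Tregs were 160 times as high (95% exact interval 28.4 to 6334, counting error only). B and plasma cell markers, of cells that can use CCR9 and CCR10, were at 1162 to 1808 CPM in colon ST2- Tregs and at 74.8 to 114 CPM in spleen ST2- Tregs. Their part in the colon values was not tested.

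Ccr10, the receptor for the skin chemokine CCL27 and the mucosal CCL28, was at 139.8, 49.7, 70.6, 81.8 and 79.7 CPM in skin ST2+ Tregs and at 0 to 11.3 CPM in spleen ST2+ Tregs (log2 fold change 4.09 ± 1.1, adjusted p = 0.00309 in edgeR). In skin ST2- Tregs it was at 30.1 to 114 CPM (log2 fold change 5.89 ± 1.2, adjusted p = 0.000167 in edgeR). B and plasma cell markers were at 65.0 CPM or less in skin. In colon ST2+ Tregs Ccr10 was at 102, 3.69 and 119 CPM in mice 1, 3 and 4, and the B and plasma cell sum of the same libraries was 1592, 241 and 1938 CPM. The library low in Ccr10 was thus the one low in these markers, and their part in the value was not tested. This colon call was lost without any 1 of the 3 mice and in DESeq2. The VAT ST2+ library of mouse 5 had the highest Ccr10 of its group, 21.1 CPM, with 1153 CPM of these markers, whereas VAT ST2- of mouse 3, with 1007 CPM, had 0 counts of Ccr10. Ccrl2 was called in lungs, VAT, colon and skin of ST2+ Tregs and in VAT, colon and skin of ST2- Tregs. Its group means were 85.5 ± 11.1 CPM in spleen, 218 ± 46.8 in lungs and 276 ± 18.5 in skin ST2+ Tregs (SD, n = 5 each). Further calls against spleen that depended on single mice were those of ST2+ Tregs for Ccr3 in blood (lost without mouse 2 or 5), Ccr10 in blood (mouse 1, 2, 3 or 4), Ccr1 in lungs (mouse 1, 3 or 4), Ccr10 in lungs (any mouse) and Ccr2 in colon (mouse 3), and that of ST2- Tregs for Ccr10 in colon (mouse 4). Of these, Ccr1 and Ccr10 in lungs were also lost in DESeq2 and with all 70 libraries.

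**Figure D5:**
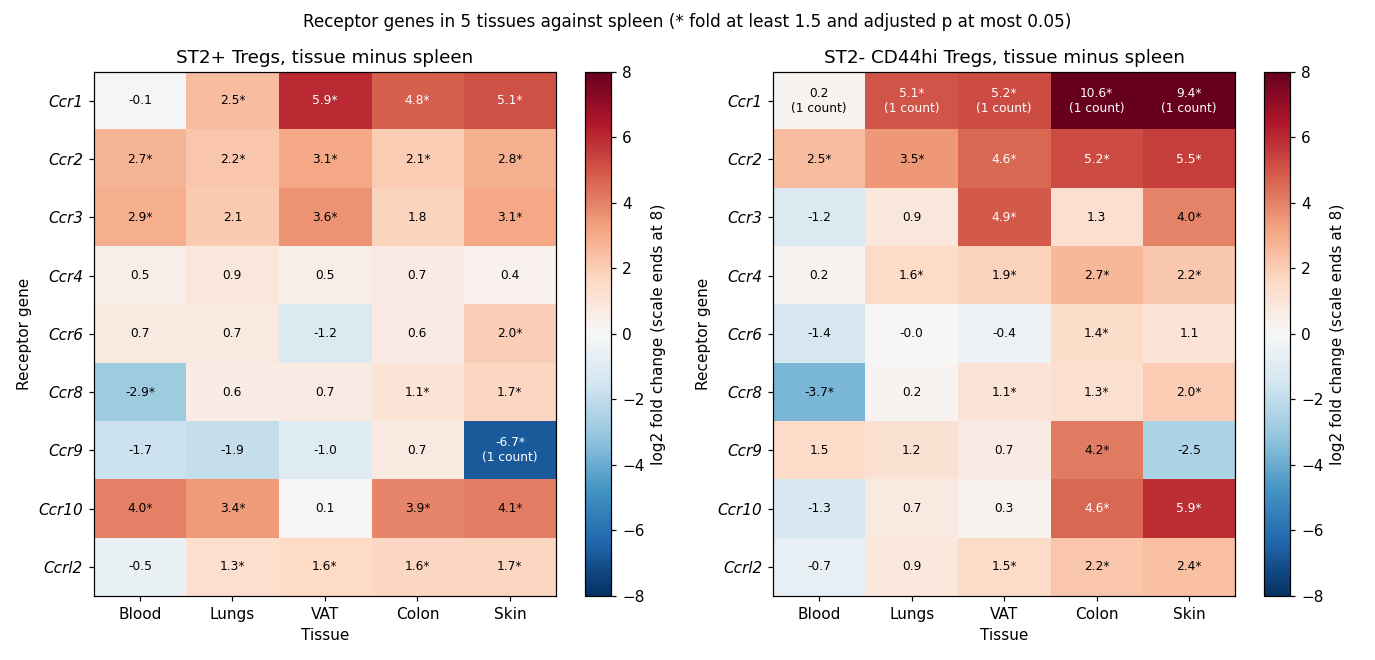
Cells show the log2 fold change of each receptor against spleen, for ST2+ and for ST2- CD44hi Tregs of 5 tissues, on a colour scale that ends at 8, with a star where the difference was called. Ccr2 is starred in all 10 columns, Ccr8 is lower in both blood columns, and a note in the cell marks contrasts in which 1 group held 1 count.

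The third comparison set CD44hi effector Tregs against CD44lo cTregs of the same organ. With the exception of Ccr9, the members were higher in CD44hi Tregs in at least 2 of the 4 contrasts. Of 36 pairs, 29 were called and all 29 were higher in CD44hi Tregs. In spleen, 6 of 9 members were called in ST2- Tregs (5.03% of all genes in either direction) and 8 of 9 in ST2+ Tregs (7.17%). In lungs, 7 of 9 were called in ST2- Tregs (5.53%) and 8 of 9 in ST2+ Tregs (12%). Both contrasts of an organ share its cTreg libraries. Ccr3 and Ccr10 had 0 counts in the cTregs of both organs, and Ccr1 had 0 counts in spleen and 1 in lung cTregs. Against 3 counts over the group, the floor that a count of 0 allows, Ccr3 was at least 73.1-fold higher in spleen ST2+ and at least 294-fold higher in lung ST2+ Tregs. On the same floor Ccr10 was at least 21.4-fold higher in spleen ST2+ and at least 198-fold higher in lung ST2+ Tregs. Ccr2 was at 0.366, 0, 0, 0 and 1.16 CPM in spleen cTregs of mice 1 to 5, and the log2 fold change was 8.14 ± 0.83 for ST2+ and 5.70 ± 0.96 for ST2- Tregs (adjusted p = 1.73e-11 and 1.41e-05 in edgeR). Ccr8 was detected in every cTreg library, at 9.29 to 16.5 CPM in spleen and 19.2 to 93.7 CPM in lungs. Its log2 fold changes were 3.83 ± 0.35 in spleen ST2+, 3.47 ± 0.35 in spleen ST2-, 2.49 ± 0.32 in lung ST2+ and 1.75 ± 0.31 in lung ST2- Tregs. Of the 29 calls, 6 were lost in some alternative. They were Ccr1 and Ccr10 in spleen ST2+ Tregs (without mouse 2 or 5, and without mouse 1, 3, 4 or 5), Ccr6 in spleen ST2+ Tregs (without mouse 5), Ccr3 in spleen ST2- Tregs (without mouse 1, 3 or 5), and Ccr1 and Ccr3 in lung ST2- Tregs (without mouse 1, 2, 3 or 4, and without mouse 3). All of these except Ccr6 were also lost in voom with quality weights. The 2 Ccr1 calls and the Ccr3 call of spleen ST2- Tregs were lost in 2-group fits as well.

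Ccr9 was the member that cTregs held as much of as CD44hi Tregs. It was at 19.4, 38.9, 48.8, 41.3 and 40.8 CPM in spleen cTregs of mice 1 to 5, second only to colon ST2- Tregs by group mean, and at 0 to 32.2 CPM in the CD44hi libraries of spleen. None of the 4 contrasts was called for Ccr9 in edgeR, and voom with quality weights called spleen ST2- Tregs lower. Between the organs, 3 of 9 members differed in cTregs where 3.16% of all genes did. Lungs were digested with collagenase and spleen was not, so organ and digestion cannot be told apart in this contrast either. Ccr8 was higher in lung than in spleen cTregs without overlap (log2 fold change 1.91 ± 0.35, adjusted p = 0.000111 in edgeR), as were, with overlap, Ccrl2 (1.86 ± 0.34, adjusted p = 0.000142) and Ccr2 (3.97 ± 1.2, adjusted p = 0.0373). The Ccr2 difference came from mice 4 and 5, with 7.35 and 21.1 CPM in lung cTregs.

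The 14 groups were put in order of mean level for each member. The highest group was VAT ST2+ for Ccr1, Ccr2 and Ccr3, colon ST2- for Ccr4 and Ccr9, and skin ST2+ for Ccr6, Ccr8, Ccr10 and Ccrl2. By median instead, colon ST2- led for Ccr6 and colon ST2+ led for Ccr10 and Ccrl2. Of 117 steps between neighbours in these orders, 7 were called, and over the same pairs of groups 10% of all tests across genes were. Neighbours in an order are its smallest differences by construction, so nothing about the members was read from this share. Steps not named here were not called. Of the 7 steps, 3 belonged to Ccr2, from spleen ST2+ to spleen ST2- (adjusted p = 0.00324 in edgeR), from spleen ST2- to lung cTregs (adjusted p = 0.0401) and from lung cTregs to spleen cTregs (adjusted p = 0.0373). Ccr4 had 2, from spleen ST2+ to blood ST2- (adjusted p = 0.0123 in edgeR) and from spleen ST2- to lung cTregs (adjusted p = 3.57e-06). Ccr8 had 1, from spleen ST2- to lung cTregs (adjusted p = 0.000178 in edgeR), and Ccrl2 had 1, from blood ST2- to spleen cTregs (adjusted p = 0.000263).

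Genes whose log2 CPM followed a member most closely over the 67 libraries were listed, 3 for each member, as a description. All values share the libraries and their depth. Ccr2 ran with Cxcr6 (Pearson's r 0.95), S100a4 (0.94) and Ahnak (0.93). Ccr3 ran with Cd200r1 (0.88), Ltb4r1 (0.87) and Klrg1 (0.86), and Ccr1 with Ky (0.89), Pxdc1 (0.88) and Msrb3 (0.88). For Ccr4 the closest were Ttc39c, Glrx and Maf (0.92 each), and for Ccr8 Tnfrsf1b (0.91), Ier5l (0.90) and Cxcl10 (0.90). Ccrl2 was closest to Id2 (0.90), Fgl2 (0.89) and Samsn1 (0.89), and Ccr6 to Itgae (0.83), Tnfaip8 (0.80) and Slc22a15 (0.77). The lists of Ccr10, which were Sh3bp4 (0.75), Antxr2 (0.75) and Gcnt1 (0.73), and of Ccr9, which were Cd79a (0.60), Abi3 (0.58) and Dand5 (0.58), were less close. Cd79a is a B cell gene, and B and plasma cell markers were high in colon, where Ccr9 was highest. Between members, Ccr2 and Ccr4 had the highest correlation (0.91), and Ccr9 was negative with each of the other 8 (-0.12 to -0.41).

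Other genes of the chemokine system were read from 4 fixed lists, which are described by their counts. Of 16 other chemokine receptors, 10 were tested. Cxcr6, the CXCL16 receptor, was higher in ST2+ Tregs of blood (274 ± 68.7 against 94.8 ± 119 CPM, SD, n = 4 and 5, adjusted p = 0.0405 in edgeR) and spleen (172 ± 28.6 against 36.2 ± 29.4 CPM, SD, n = 5 each, adjusted p = 0.00779). Cxcr5, the receptor for B cell follicles, was lower in ST2+ Tregs of blood, spleen, lungs and VAT, and had 0 counts in ST2+ Tregs of blood and VAT, where ST2- Tregs held 94.2 ± 30.1 and 40.4 ± 61.7 CPM (SD, n = 5 each). Ccr7, which guides cells to lymph nodes, was lower in ST2+ Tregs of blood (234 ± 126 against 955 ± 170.0 CPM, SD, n = 4 and 5, adjusted p = 0.00447 in edgeR) and VAT (adjusted p = 0.000526). Cxcr3, a receptor of type 1 inflammation, was lower in ST2+ Tregs of VAT and of skin, where it was at 18.6 ± 16.1 against 249 ± 60.3 CPM (SD, n = 5 each, adjusted p = 3.82e-07 in edgeR). In blood this list had 1 gene higher and 2 lower, with a median log2 fold change of 0, as for all genes. In VAT it had 0 higher and 3 lower, with a median of -1.39 against -0.01 for all genes. No gene of this list was called in colon.

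Of 19 ligands of the members, 14 were tested, and 1 was called between ST2+ and ST2- Tregs. This was Ccl5, a ligand of CCR1 and CCR3, which in VAT was at 67.7 ± 32.6 CPM in ST2+ and 263 ± 69.4 CPM in ST2- Tregs (SD, n = 5 each, log2 fold change -1.95 ± 0.53, adjusted p = 0.0216 in edgeR). Against spleen, 9 ligands were higher in colon ST2+ Tregs, where 10.4% of all genes differed in either direction, and 5 were higher in skin ST2+ Tregs, where 29.1% did. Ccl2, Ccl7 and Ccl8, which macrophages can secrete, were called in both tissues. In colon and skin ST2+ libraries Ccl2 reached 95.4 and 24.2 CPM, Ccl7 reached 51.3 and 8.67 CPM, and Ccl8 reached 75.7 and 31.0 CPM. Macrophage marker sums were 1560 to 1883 CPM in the colon ST2+ and 9.93 to 214 CPM in the skin ST2+ libraries, and their part in the ligand calls was not tested. Of 30 signalling genes, all 30 were tested. Rgs2, a regulator of G protein signalling, was higher in ST2+ Tregs of blood (422 ± 67.2 against 197 ± 59.7 CPM, SD, n = 4 and 5, adjusted p = 0.00157 in edgeR) and spleen (adjusted p = 0.00974). In blood Rgs14 was also higher and Rgs10 was lower, while no gene of the list was called in lungs, VAT, colon or skin. Of 16 homing partners, 15 were tested. Itgae, the CD103 integrin chain that binds E-cadherin, was at 385 ± 113 CPM in ST2+ and 73.8 ± 41.0 CPM in ST2- Tregs of blood (SD, n = 4 and 5, log2 fold change 2.38 ± 0.59, adjusted p = 0.0104 in edgeR). Itgb1 was higher in ST2+ Tregs of blood and lower in those of VAT. In VAT, S1pr1 and Gpr183, which guide cells out of tissues and within lymphoid organs, were lower as well (adjusted p = 0.000851 and 0.00062 in edgeR), and in lungs Klf2, which drives S1pr1, was lower (adjusted p = 0.00675). Median log2 fold changes of the signalling list ran from -0.06 to 0.09 over the 6 tissues.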

How the data were processed

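The authors sorted the cells into SMART-Seq v4 buffer, made NexteraXT libraries and sequenced 58-base single reads. STAR aligned the reads to GRCm38 and HTSeq 0.4.1 counted them per Ensembl gene, per the labels and the paper. The authors deposited the raw, unscaled counts. The sources used here give no strand setting, counting mode or duplicate removal, so intervals and floors cover counting error only.

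From these counts, libraries above 1000000 counts (67 of 70) were kept, as were the 13173 protein-coding genes that reached 1 CPM in 10% of them. Of 53465 gene IDs, 53274 matched the GENCODE M21 annotation. The fit was tested on simulated counts with known changes. TMM-scaled counts were fitted with edgeR 4.0.16 (quasi-likelihood, R 4.3.3), with 1 term per group. P-values were two-sided and Benjamini-Hochberg adjusted over all tested genes. Levels are TMM CPM. The SE is the log2 fold change divided by the square root of F. DESeq2 1.42.0, limma 3.58.1 (voom with quality weights), a mouse block, other scaling and filters, all 70 libraries, 2-group fits and each mouse left out were alternatives. Python 3.11.15, numpy 2.4.6, scipy 1.17.1, pandas 2.3.3 and matplotlib 3.10.9 were used.

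Samples with the same number come from the same mouse. Deviations from group means correlated in 27 same-mouse pairs with a mean r of 0.0834 (lowest 0.00628, over 9207 genes, 8 pairs above 0.1), against -0.02 between mice. Replicates were separate animals, and 0 columns were left unused. Named genes were the 9 members, the 3 tested genes most correlated with each (log2 CPM, prior count 2), and up to 5 called genes per fixed list. Members, lists and tests were chosen with earlier results of these data known. Some genes of the lists are not reported here. Protein sequences were not used here.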

Additional observations from a re-analysis of the deposited data

Results flagged for a closer look

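Single libraries that stood away from the rest of their group were found in 14 of 112 groups of 4 or 5 libraries. The rule was a gap to the nearest library above Dixon's 95% limit, which chance passes in about 1 group in 20 for normally distributed values. A group with counts in only 1 library passes this limit by construction, so the 14 cannot be set against that rate. Several of the 14 were groups of near-empty libraries with few counts in 1 of them. Ccr1 was at 0.510 CPM in blood ST2- Tregs of mouse 4, at 0.435 CPM in spleen ST2- Tregs of mouse 3 and at 0.399 CPM in lung cTregs of mouse 5, with 0 counts in the other mice. Ccr9 was at 0.619 CPM in skin ST2+ Tregs of mouse 3 in the same way. Ccr3 was at 6.12 CPM in blood ST2- Tregs of mouse 4. Ccr10 of mouse 5 was the highest of 4 groups, at 2.34 CPM in blood ST2-, 5.27 CPM in spleen ST2-, 6.89 CPM in VAT ST2- and 21.1 CPM in VAT ST2+ Tregs.

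The other single libraries held well-expressed receptors. Ccr1 was at 442 CPM in VAT ST2+ Tregs of mouse 5, against 248 to 295 CPM in the other 4 mice. Ccr2 was at 187 CPM in VAT ST2- Tregs of mouse 1, below 492 to 576 CPM in the rest. Ccr6 of mouse 2 was the highest in both skin groups, at 420 CPM (ST2-) and 497 CPM (ST2+). Ccrl2 was at 298 CPM in lung ST2+ Tregs of mouse 4, against 185 to 212 CPM in the others.

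The ST2 difference varied between tissues for 4 members by the interaction test in edgeR, with F of 8.80 for Ccr1, 8.72 for Ccr2, 5.73 for Ccr3 and 5.82 for Ccr4.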

How the results depend on the processing

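The 92 calls of members in the ST2, spleen and cTreg contrasts kept their direction in every one of the 14 alternatives that could be fitted, and none was reversed. Of the 12 ST2 calls, 5 held in all of them (Ccr2, Ccr3, Ccr4 and Ccr10 in blood, Ccr1 in VAT). So did 18 of 25 calls against spleen in ST2+ Tregs, 19 of 26 in ST2- Tregs and 23 of 29 calls against cTregs. The count of 12 members higher in ST2+ Tregs was 7 to 10 with 1 mouse left out, lowest without mouse 5. The count of 0 lower became 1 with voom and 1 in 2-group fits, colon Ccr6 in both. For the interaction, voom lost Ccr1 and added Ccr10, DESeq2 added Ccr6, and all 70 libraries lost Ccr3. The interaction count of 4 was 2 to 3 with 1 mouse left out and 1 without libraries with at least 10 Csf1r counts, a choice made after the values were seen, which leaves no colon ST2+ contrast. The cause was not tested, other than that these fits hold fewer libraries. With each mouse as a replicate block, the 12 ST2 calls, the 26 ST2- calls against spleen and the 29 cTreg calls were the same in number. The paired fit called 26 against spleen in ST2+ Tregs (Ccr3 in lungs added) and 5 interactions (Ccr10 added), and lost none. Another scaling moved the median of all genes by -0.0208 to 0.0286 (log2) and lost no call. Ordering groups by median gave 9 called steps in place of 7. Of the 27 most similar genes, 11 were among the closest 3 by Spearman's rho and 8 by group means. At about 2.04 counts per CPM, levels near 1 CPM are a few counts, and differences there were not resolved.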
